A study of Mus musculus with 8 samples.

Results

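Expression of 8 marker genes of the upper hair follicle and infundibulum was followed in RNA-seq libraries of sorted epithelial cells from mouse skin epidermis. The genes were chosen by symbol (Lgr6, Plet1, Sostdc1, Gata6, Krt79, Cst6, Defb6 and Defb1), with earlier results of these data known. Each symbol matched 1 of the 32574 gene rows. The 8 libraries form 4 groups of 2, a control and an ablation group for each of the populations named K14 and Lrig1. Control libraries are labelled wild type and ablation libraries carry a basal lineage ablation. The age, sex and strain of the mice, the time after ablation and what K14 and Lrig1 refer to (a driver, a sort or a lineage) are not stated in the labels used, so below these names only denote the populations. The labels also do not say whether the libraries of a group came from separate animals, and p-values therefore measure only the spread between these libraries, which may be technical. The series was made to study clonal expansion and tissue fluidity in skin repair, and its design text speaks of basal cells.

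The infundibulum is the funnel through which a hair follicle opens onto the skin surface, and the isthmus and junctional zone lie below it, next to the sebaceous gland. These regions hold their own stem cells, which express Lrig1, Lgr6 or Plet1 and maintain the upper follicle and the gland, and which can move into the surrounding epidermis after injury. Daughter cells that line the follicle opening express the keratin Krt79, and the transcription factor Gata6 marks the junctional zone and the sebaceous duct lineage. Lgr6 is a receptor for R-spondins, which strengthen Wnt signalling, Plet1 is a membrane-anchored surface protein, and Sostdc1 is a secreted antagonist of BMP and Wnt signals. Cst6 (cystatin E/M) inhibits the lysosomal proteases legumain and cathepsin L in cornifying cells, and Defb1 and Defb6 encode beta-defensins, which are antimicrobial peptides.

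Libraries held 6458636 to 11654135 recovered reads. The values below are normalised read counts, that is, the authors' deposited values per gene, in which 1 read is worth 0.708 to 1.41 depending on the library. Mitochondrial genes took 2.34 to 6.89% of the values. The share was 6.29 and 6.89% in Lrig1 control, 3.14 and 4.14% in Lrig1 ablation and 2.34 to 2.91% in the K14 libraries. Lrig1 control also had the fewest recovered reads, 7621768 and 6458636. The part of these library differences in the comparisons with Lrig1 control was not tested. The basal keratinocyte genes Krt5 and Krt14 were at 28052 or more in every library and suprabasal epidermis genes summed to 29182 or more. Fibroblast genes summed to 85.3 to 300.1 over the libraries, with Dcn, Col1a1, Col1a2 and Col3a1 above 0 in all 8 and Lum at 0 in 5. Of the Merkel cell genes, Piezo2 was above 0 in all 8 (1.42 to 23.9) and Atoh1 was at 0 in 7. Replicates of the control groups lay close together, with a difference of over 2-fold in 3.69% of 18140 tested genes in K14 control and 5.88% in Lrig1 control. The ablation replicates lay further apart, with 12.7% in K14 ablation and 18.8% in Lrig1 ablation.

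**Figure D1:**
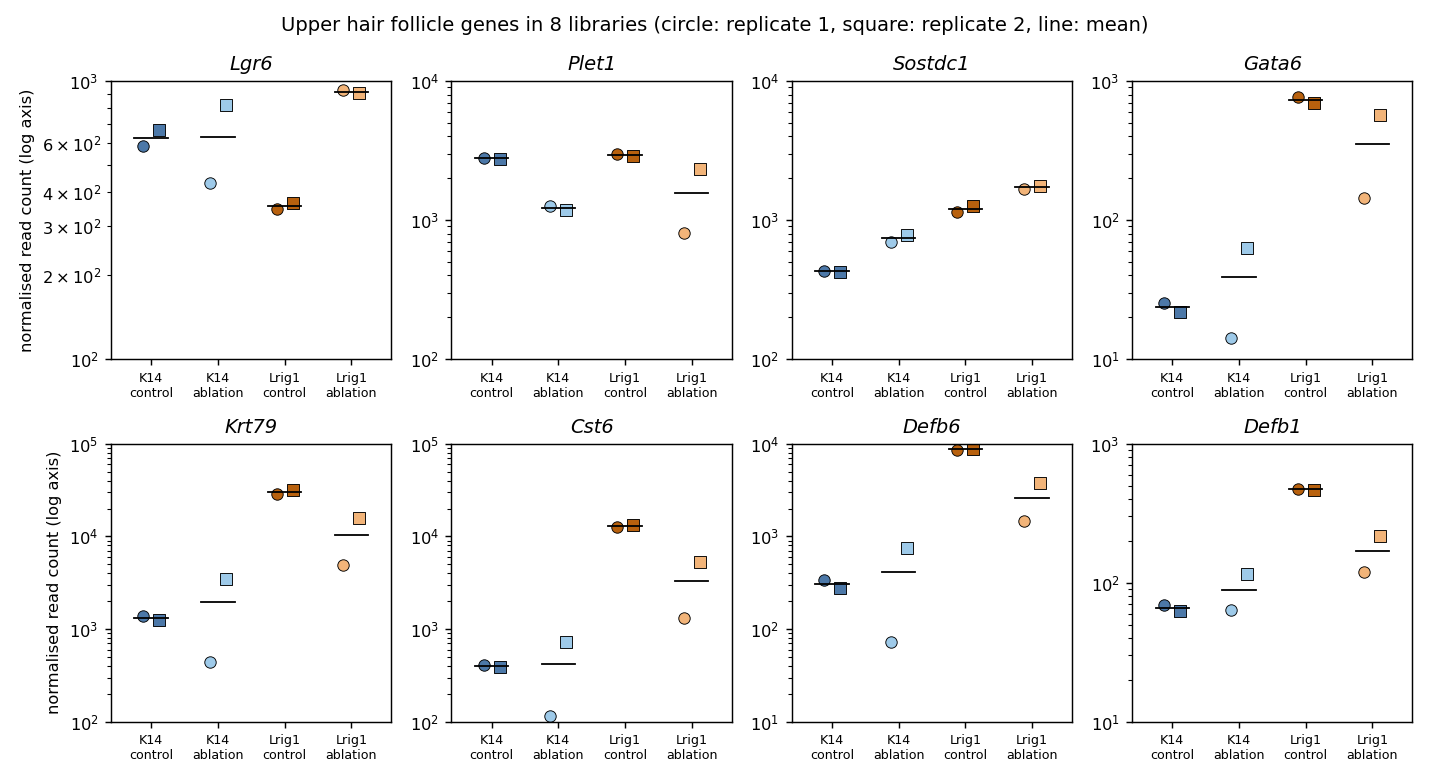
Normalised read count (log axis) of the 8 genes in each library, by group; circles are replicate 1, squares are replicate 2 and lines are group means (n = 2). Gata6, Krt79, Cst6 and Defb6 were highest in the Lrig1 control libraries, and in both ablation groups replicate 2 lay above replicate 1 for each of these 4 genes.

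The comparison of Lrig1 control with K14 control shows how the unablated populations differed. Genes of the differentiated upper follicle were 7.1 to 32.6 times as high in Lrig1 control as in K14 control, Sostdc1 was 2.82 times as high, and the stem cell markers Lgr6 and Plet1 did not pass the test. In all, 6 of the 8 genes were higher and 0 were lower (limma, adjusted p under 0.05 over all 18140 tested genes), against a background of 8.79% of tested genes called, 6.52% higher and 2.27% lower. The median log2 difference of the 8 genes was 3.66 and that of all tested genes was -0.0049. Since the 8 genes were chosen with earlier results of these data known, their count and median are not independent of these data. In bulk RNA, fewer cells of a type and less RNA per cell cannot be told apart.

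Krt79 (ENSMUSG00000061397, GRCm38 chromosome 15, 101929332 to 101940324, minus strand), the keratin of the cells lining the follicle opening, had normalised read counts of 1395 and 1246 in K14 control and of 28938 and 31438 in Lrig1 control. The groups did not overlap, which here and below only describes the libraries, since its share over all tested genes was not counted. Krt79 had the highest read count of the 8 genes in Lrig1 control. Its log2 difference, on the log2(value + 1) scale used throughout, was 4.51 ± 0.85 (SE; limma adjusted p = 0.0178). Cst6 (ENSMUSG00000024846, chromosome 19, 5344705 to 5349574, minus strand) was 412 and 389 in K14 control and 12740.3 and 13373 in Lrig1 control. This protease inhibitor gene had the largest log2 difference of the 8, 5.02 ± 0.83 (limma adjusted p = 0.0118). Gata6 (ENSMUSG00000005836, chromosome 18, 11052064 to 11085635, plus strand) was 25.4 and 21.7 in K14 control, which rests on 25 and 22 reads, and 773 and 699 in Lrig1 control. The log2 difference of this transcription factor gene was 4.91 ± 0.74 (limma adjusted p = 0.00855).

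Both defensin genes followed the same direction, by unequal amounts. Defb6 (ENSMUSG00000050756, chromosome 8, 19225478 to 19228209, plus strand) was 339 and 279 in K14 control and 8548 and 8792 in Lrig1 control, a log2 difference of 4.81 ± 0.91 (limma adjusted p = 0.0180). Defb1 (ENSMUSG00000044748, chromosome 8, 21776599 to 21795185, plus strand) was 69.1 and 63.0 in K14 control and 476 and 461 in Lrig1 control, a log2 difference of 2.81 ± 0.34 (limma adjusted p = 0.00482). Neither gene's libraries overlapped between the control groups. Of the 16 other beta-defensin genes in the table, only Defb2 passed the filter on low values. It was at 5.08 and 6.89 in K14 control and 29.1 and 26.8 in Lrig1 control (log2 difference 2.06 ± 1.14, limma adjusted p = 0.317).

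Among the genes of the stem cell region, Sostdc1 (ENSMUSG00000036169, chromosome 12, 36314139 to 36318452, plus strand) was 431 and 424 in K14 control and 1143 and 1270.1 in Lrig1 control. This secreted antagonist was higher by a log2 difference of 1.49 ± 0.14 (limma adjusted p = 0.00302). Lgr6 (ENSMUSG00000042793, chromosome 1, 134983301 to 135105276, minus strand) was 582 and 665 in K14 control and 346 and 364 in Lrig1 control. Its Lrig1 control libraries were thus the lower ones, unlike those of the other genes, at a log2 difference of -0.81 ± 0.27 (95% interval -1.43 to -0.19, limma adjusted p = 0.11), which did not pass. Plet1 (ENSMUSG00000032068, chromosome 9, 50494525 to 50505482, plus strand) was 2812 and 2752 in K14 control and 3002 and 2910 in Lrig1 control. The interval of its log2 difference ran from -0.83 to 1.01 (limma adjusted p = 0.928). Plet1 lies within the antisense gene Plet1os (50488795 to 50507823, minus strand). Without a stated strand setting the reads of this pair cannot be told apart, so Plet1 values are uncertain.

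These calls rest on each of the 4 control libraries. Without K14 control 1 or K14 control 2, 1 of the 8 genes still passed, Sostdc1, and without Lrig1 control 1 or Lrig1 control 2, 0 passed (limma). The log2 differences themselves moved little, from 4.43 to 4.60 for Krt79 and from 4.98 to 5.07 for Cst6. With limma fitted to the 4 control libraries alone, 7 passed, with Lgr6 lower (adjusted p = 1.49e-06). That fit also called far more of all tested genes than the 8.79% of the main fit, as counted in the last section. Its 7 calls therefore cannot be set against the share of the main fit.

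**Figure D2:**
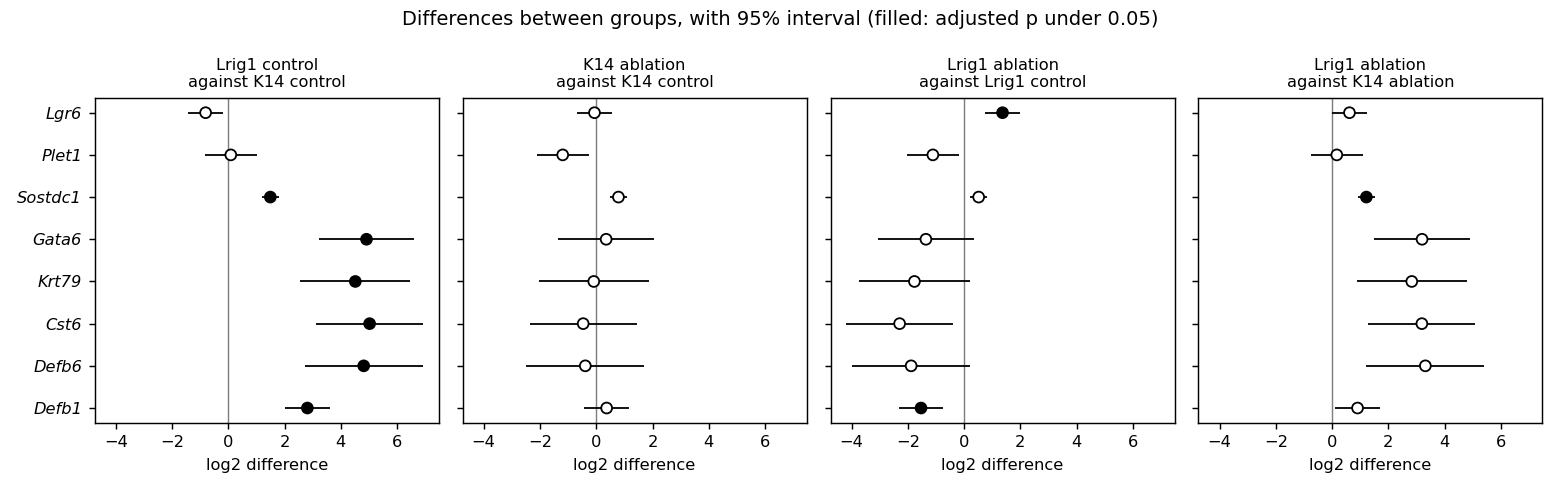
Log2 difference of each gene in the 4 comparisons between groups, with its 95% interval from limma; filled points passed an adjusted p of 0.05. Filled points number 6 in the comparison of the controls, 0 in K14 ablation, 2 in Lrig1 ablation and 1 between the ablation groups.

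The effect of ablation in the K14 population was read from K14 ablation against its control. By limma 0 of the 8 genes passed, with 2 of them under 0.05 before adjustment, while edgeR called 0 and DESeq2 called 1, Sostdc1. The background was 0.187% of tested genes called, 0.0992% higher and 0.0882% lower. The median log2 difference of the 8 genes was -0.076, against -0.0018 for all tested genes. Sostdc1 was 696 and 786 in K14 ablation, above the 431 and 424 of K14 control, and Plet1 was 1259 and 1175, below the 2812 and 2752 of control. The groups did not overlap for either gene, with the share over all tested genes not counted. The log2 difference of Sostdc1 was 0.79 ± 0.14 (limma adjusted p = 0.0933) and that of Plet1 was -1.19 ± 0.40 (limma adjusted p = 0.296). Both passed without Lrig1 ablation 1 (limma adjusted p = 0.0192 for Sostdc1 and 0.00556 for Plet1) or without Lrig1 ablation 2 (0.0184 and 0.00507), while Lrig1 libraries enter this comparison only through the shared estimate of the spread.

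For the differentiated genes the K14 ablation libraries fell on opposite sides of the controls. Krt79 was 446 in K14 ablation 1 and 3443 in K14 ablation 2, below and above the control values of 1395 and 1246. Cst6 was 117 and 717 around controls of 412 and 389, and Defb6 was 72.2 and 757 around controls of 339 and 279. Gata6 was 14.2 and 63.3, on 20 and 59 reads. So each of these 4 genes was lower than in both controls in K14 ablation 1 and higher than in both in K14 ablation 2, by 4.47-fold (Gata6) to 10.5-fold (Defb6) between the replicates. Their 95% intervals of the log2 difference were wide, from -2.05 to 1.87 for Krt79 and from -2.49 to 1.71 for Defb6. Without K14 ablation 1 the log2 difference of Krt79 went from -0.088 to 1.38 (limma adjusted p = 0.352), and that of Defb6 from -0.39 to 1.30 (limma adjusted p = 0.308). The sign also depended on the tool, since edgeR gave 0.56 for Krt79 and 0.42 for Defb6, without a call. Lgr6, at 430.2 and 823, also straddled its controls. Defb1 was 63.7 and 115, at the level of the controls in 1 library and above it in the other.

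The sebaceous gland list moved with these genes between the K14 ablation replicates. All 9 of its markers were higher in K14 ablation 2 than in K14 ablation 1, 8 of them by over 2-fold, and the summed level was 3193 and 17616, against 12752 to 12889 in K14 control. Its defining gene Awat1 was at 0 in K14 ablation 1. The part of sebaceous RNA in the spread of the follicle genes was not tested. In Lrig1 ablation the same list was higher in replicate 2 for 2 of 9 markers, while 7 of the 8 upper follicle genes were.

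In the Lrig1 population, the ablation libraries were set against Lrig1 control. Lgr6 rose and Defb1 fell, and these were 2 of the 8 genes, against a background of 4.06% of tested genes called, 0.766% higher and 3.30% lower (limma). The median log2 difference was -1.45 for the 8 genes and -0.017 for all tested genes. Lgr6 was 926 and 904 in Lrig1 ablation, 2.58 times the mean of the 346 and 364 in Lrig1 control. The groups did not overlap, and the ablation libraries held the highest Lgr6 values of all 8 libraries. The log2 difference was 1.36 ± 0.27 (limma adjusted p = 0.0332), and it stayed between 1.33 and 1.40 without any 1 library. The call was lost without either K14 control library (limma adjusted p = 0.0887 and 0.0891) or either Lrig1 control library (0.245 and 0.247).

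Defb1 was 119 and 218 in Lrig1 ablation against 476 and 461 in control. The fall of this defensin gene, by 1.53 ± 0.34 on the log2 scale, passed at the threshold (limma adjusted p = 0.04996). It did not pass with TMM scaling (0.0527), without a filter on low values (0.0662), by edgeR (0.0622), in the Lrig1 libraries alone (0.090), without any of the 4 control libraries (0.116 to 0.306) or without Lrig1 ablation 1 (0.0678). The other differentiated genes were below control in both Lrig1 ablation libraries. Krt79 was 4961 and 15797 against 28938 and 31438, a log2 difference of -1.77 ± 0.85 (95% interval -3.73 to 0.19; limma adjusted p = 0.298). Cst6 was 1323 and 5343 against 12740.3 and 13373, at -2.29 ± 0.83 (limma adjusted p = 0.172). Gata6 was 144 and 567 against 773 and 699, at -1.36 ± 0.74, and Defb6 was 1469.6 and 3745 against 8548 and 8792, at -1.89 ± 0.91 (limma adjusted p = 0.353 and 0.300). None of these 4 passed, and their ablation replicates differed by 2.55-fold (Defb6) to 4.04-fold (Cst6), with replicate 2 the higher in each case. Defb6 passed without K14 ablation 1 (limma adjusted p = 0.0376) or K14 ablation 2 (0.0385).

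Sostdc1 was 1684 and 1764 in Lrig1 ablation and 1143 and 1270.1 in control. Its libraries did not overlap, and the log2 difference of 0.52 ± 0.14 did not pass (limma adjusted p = 0.0785), except without Lrig1 ablation 1 (0.0369). Plet1 was 804 and 2322 in ablation, below both controls, at a log2 difference of -1.11 ± 0.40 (limma adjusted p = 0.171). Without Lrig1 ablation 2 the log2 difference of Plet1 was -1.88 and passed (limma adjusted p = 0.000767). Lrig1 control is the reference here and the first group of the comparison of the controls, so these comparisons share libraries and their values are not independent.

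Markers of other cells moved in the same comparison. Suprabasal epidermis genes fell in 4 of 6 (Krt10, Lor, Flg2 and Casp14), with a summed level of 94005 to 107672 in Lrig1 control and 29182 to 30026 in Lrig1 ablation, and Flg2 was at 0 in Lrig1 ablation 1. Hair shaft genes fell in 5 of 5 and endothelial genes in 4 of 5, with Krt86 at 0 in Lrig1 ablation 2 and Sele at 0 in both. Of the leukocyte genes 1 of 5 fell, Lyz2 (-2.32 ± 0.46, limma adjusted p = 0.0332), with 4 of 5 at an unadjusted p under 0.05 and summed levels of 568 to 734 in control and 90.5 to 112 in ablation. The summed endothelial level was 759 to 813 in Lrig1 control, 49.7 to 123 in Lrig1 ablation and 51.5 to 96.9 in the K14 groups. Basal interfollicular genes summed to 202443 in Lrig1 ablation 1 and 84819 in Lrig1 ablation 2, while in Lrig1 control they summed to 101889 to 110852. The level of Krt79 per 100 of Krt14, a basal keratin, was 69.3 and 71.0 in Lrig1 control, 7.1 in Lrig1 ablation 1 and 56.3 in Lrig1 ablation 2. The part of these cells in the values of the follicle genes was not tested.

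Between Lrig1 and K14 control, higher calls also came from suprabasal epidermis (4 of 6), bulge and germ (4 of 6), hair shaft (4 of 5), endothelial (4 of 5), fibroblast (3 of 5 tested) and leukocyte markers (3 of 5), and their part in the difference of the upper follicle genes was not tested. Summed levels in Lrig1 control were 879 to 1666 for hair shaft, 190 to 296 for fibroblast and 568 to 734 for leukocyte genes, against 485 to 499.7, 85.3 to 92.5 and 194 to 301 in K14 control. For the same lists the sums in ablation were 412 to 423, 123 to 125 and 217 to 1016 in K14, and 241 to 314, 170 to 300.1 and 90.5 to 112 in Lrig1. Bulge and germ genes summed to 3826 to 3977 in K14 control, 4562 to 4739.5 in K14 ablation, 8219 to 8455 in Lrig1 control and 8498 to 9685 in Lrig1 ablation. Single genes made up most of some sums. Hoxc13 was 481 and 463 in K14 control, and its difference between the controls did not pass (0.11 ± 0.17, limma adjusted p = 0.748). Cd74 was 944 in K14 ablation 2, and Krt15 was 3151 and 3205 in K14 control. The leukocyte gene Cd3e had a negative log2 difference between the controls (-1.66 ± 0.63). Melanocyte genes summed to 173 to 315 over all 8 libraries and Merkel cell genes to 3.22 to 25.6.

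The difference of the ablation effects, Lrig1 minus K14, was tested in the same fit. By limma it passed for 0 of the 8 genes, with 2 under 0.05 before adjustment, and edgeR called 0 and DESeq2 called 1, Defb1. Of all tested genes 0.198% passed, 0.011% with a positive and 0.187% with a negative difference. The 2 were Lgr6, at a log2 difference of effects of 1.43 ± 0.38 (limma adjusted p = 0.159), and Defb1, at -1.90 ± 0.49 (limma adjusted p = 0.146). Without K14 ablation 2 the Lgr6 difference was 1.89 and passed (limma adjusted p = 0.0257), and without Lrig1 ablation 2 that of Defb1 was -2.34 and passed (0.0402). For Sostdc1, which was above its controls in both populations, the 95% interval of the difference was -0.72 to 0.17, and for Plet1, below its controls in both, it was -1.22 to 1.38.

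Lrig1 ablation and K14 ablation were compared last. Sostdc1 was higher in Lrig1 ablation, by 1.22 ± 0.14 on the log2 scale (limma adjusted p = 0.0236), and was the 1 gene of 8 to pass, against a background of 0.667% called, 0.463% higher and 0.204% lower. The call was lost when limma was fitted to the ablation libraries alone (adjusted p = 0.281) and without any 1 of the 4 control libraries (0.0864 to 0.106). Gata6, Krt79, Cst6 and Defb6 had log2 differences of 2.83 to 3.32, with lower interval bounds of 0.87 to 1.51, and none passed (limma adjusted p = 0.109 to 0.183). For these 4 genes each library of Lrig1 ablation was above each of K14 ablation, with the share over all tested genes not counted. With 1 library left out at a time, the log2 differences of these 4 genes stayed positive. They ran from 1.36 to 4.31 for Krt79 and from 2.16 to 4.24 for Gata6. Whether these genes passed depended on the library left out. So did the calls over all tested genes, as counted in the last section. Counts of the 8 genes in those fits therefore cannot be set against 0.667%. Of the bulge and germ genes, 6 of 6 had positive log2 differences here with an unadjusted p under 0.05, and 1 passed, Lhx2, a bulge stem cell transcription factor, at 2.90 ± 0.31 (limma adjusted p = 0.0236). The Merkel cell gene Piezo2, the 1 tested of its list, passed as well, at 2.78 ± 0.47 (limma adjusted p = 0.04997). It was 1.42 and 2.14 in K14 ablation, below the level of 3 reads there (2.12 and 3.22), and 13.3 and 23.9 in Lrig1 ablation. The untested Krt20 went the other way, at 9.20 and 1.07 in K14 ablation and 0 and 0.80 in Lrig1 ablation. Atoh1 was at 0 in each of these libraries, so this call rests on 1 gene of few reads. Bulge and germ genes summed to 8498 to 9685 in Lrig1 ablation and 4562 to 4739.5 in K14 ablation, and the part of these cells in the Sostdc1 difference was not tested.

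Cst6, Defb6 and Gata6 followed the level of Krt79 from library to library, within a 2.11-fold range. From the lowest to the highest library, Krt79 spanned 70.4-fold, Cst6 115-fold, Gata6 54.6-fold and Defb6 122-fold. Cst6 per 100 normalised reads of Krt79 stayed between 20.8 and 44.0, a 2.11-fold range. Defb6 per 100 of Krt79 stayed between 16.2 and 29.6 (1.83-fold), and Gata6 per 100 of Krt79 between 1.74 and 3.59 (2.06-fold). The stem cell region genes and Defb1 did not keep pace with Krt79. Per 100 of Krt79, Lgr6 ranged from 1.16 to 96.4 (83.3-fold), Sostdc1 from 3.95 to 156 (39.4-fold), Plet1 from 9.25 to 282 (30.5-fold) and Defb1 from 1.38 to 14.3 (10.3-fold). Krt79 and these 3 genes together made up 21.0% of the summed level of the 8 genes in K14 ablation 1, 63.2% in K14 ablation 2 and 91.1 and 91.6% in Lrig1 control. These ratios are a description over 8 libraries, which share the group structure. They were taken only for genes of this list, and genes outside it also lay near in profile (below).

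**Figure D3:**
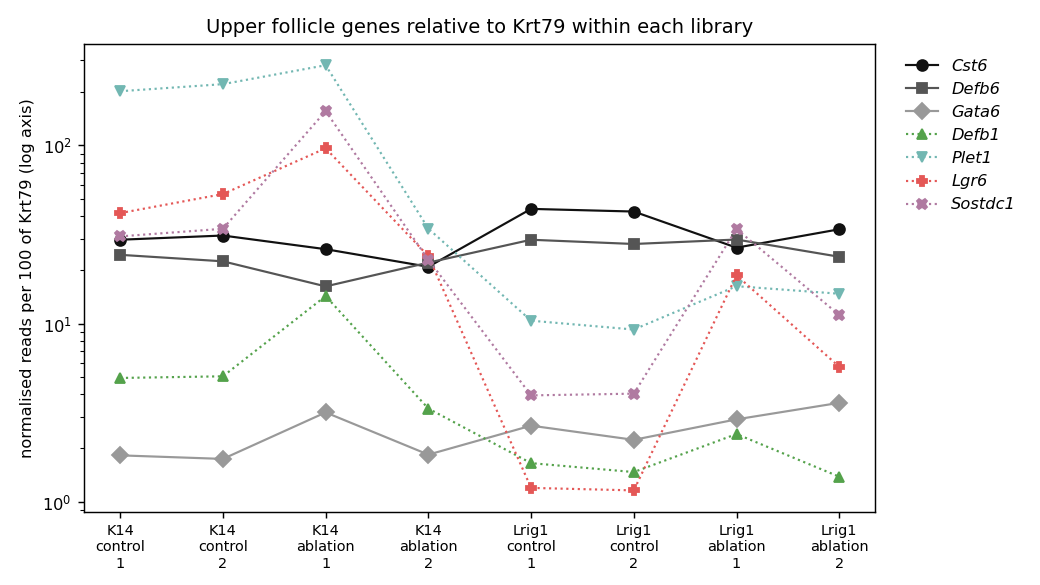
Normalised reads of the other 7 genes per 100 of Krt79 in each library (log axis); lines join libraries only to guide the eye, solid for Cst6, Defb6 and Gata6 and dotted for the rest. The solid lines stay within a 2.11-fold range, while Lgr6 spans 83.3-fold.

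Likeness of pattern was also measured against all other tested genes, as the root mean square difference of centred log2 profiles over the 8 libraries (0 means the same profile). The 3 genes nearest to Krt79 were Defb6 (0.27), Cst6 (0.34) and Gata6 (0.37). All are from the list of 8, which was chosen with earlier results of these data known. Nearest to Cst6 were Fam26e (0.25), Defb6 (0.30) and Krt79 (0.34), and nearest to Defb6 were Krt79, Cst6 (0.30) and Btc (0.37), an EGF receptor ligand gene. Gata6 was closest to Dnajc6 (0.35), Nebl (0.36) and Krt79 (0.37). The remaining genes had other neighbours. They were Tns3 (0.16), Gm12961 and Nedd9 for Lgr6, Col5a1 (0.14), Bmf and Fxyd6 for Sostdc1, and Pinlyp (0.20), Endod1 and Epcam for Defb1. Plet1 was closest to its antisense partner Plet1os (0.092), then Nr4a3 and Gm37809. Lgr6 and Cst6 were the most unlike pair of the 8, at 2.56.

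The promoter letters of Krt79 and Defb6, the closest pair, are shown beside those of Lgr6, which had the opposite pattern in the Lrig1 libraries. Each run is the 250 bases before the annotated start (RefSeq, GRCm38.p6), 5′ to 3′ on the gene's strand: chr15:101940325-101940574 (minus) for Krt79, chr8:19225228-19225477 (plus) for Defb6 and chr1:135105277-135105526 (minus) for Lgr6. Capitals mark GATA motifs, searched on both strands as AGATAA or AGATAG or TGATAA or TGATAG, the 6-base core that GATA factors such as Gata6 bind.
Krt79: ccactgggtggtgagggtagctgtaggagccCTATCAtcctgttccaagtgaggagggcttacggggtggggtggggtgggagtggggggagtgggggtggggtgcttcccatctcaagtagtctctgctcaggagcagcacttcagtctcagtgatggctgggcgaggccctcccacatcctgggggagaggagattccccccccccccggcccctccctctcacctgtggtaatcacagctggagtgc
Defb6: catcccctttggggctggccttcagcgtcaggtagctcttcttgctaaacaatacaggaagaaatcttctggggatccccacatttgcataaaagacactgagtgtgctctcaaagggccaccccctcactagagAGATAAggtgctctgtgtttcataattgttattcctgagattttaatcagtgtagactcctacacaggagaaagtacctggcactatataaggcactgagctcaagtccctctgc
Lgr6: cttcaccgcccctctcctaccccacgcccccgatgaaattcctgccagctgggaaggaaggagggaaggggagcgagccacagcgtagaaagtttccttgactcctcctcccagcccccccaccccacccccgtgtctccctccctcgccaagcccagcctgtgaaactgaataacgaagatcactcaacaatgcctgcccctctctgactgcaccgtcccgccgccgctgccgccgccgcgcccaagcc
Krt79 held 1 match, TGATAG read on the opposite strand, and Defb6 held 1, AGATAA, that began 115 bases before its start. Lgr6 and Plet1 held 0, and the promoter table matched 4 of the 8 genes. Of 32851 promoter windows of this length, 26.5% held at least 1 match, so a match is common and is only a description of these letters.

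Levels were set against each other between genes after division by transcript length, here the longest principal GENCODE transcript. For Krt79 this was 2097 bases, against 4753 over all exons. Such division assumes reads from along the whole transcript, which was not checked, so the order holds only for this choice. In Lrig1 control the order per kilobase ran from Defb6 (26842 ± 534; SD, n = 2) through Krt79 (14396 ± 843), Cst6 (3305 ± 113), Plet1 (1750.1 ± 38.8), Sostdc1 (678 ± 50.4), Defb1 (537 ± 12.3) and Gata6 (228 ± 16.1) to Lgr6 (53.1 ± 1.90), and no neighbours overlapped. In K14 control Plet1 led with 1647 ± 25.2, followed by Defb6 (956 ± 133), Krt79 (629.9 ± 50.2), Sostdc1 (240.0 ± 2.49), Cst6 (101 ± 4.19), Lgr6 (93.4 ± 8.76), Defb1 (75.7 ± 4.90) and Gata6 (7.27 ± 0.82). There only Cst6 and Lgr6 overlapped. By these lengths the surface protein gene Plet1 stood first in K14 control and behind Defb6, Krt79 and Cst6 in Lrig1 control. Its values are uncertain because of Plet1os, as given above. Lgr6 was last in Lrig1 control only. In Lrig1 ablation the order was Defb6, Krt79, Sostdc1, Plet1, Cst6, Defb1, Lgr6 and Gata6, and 5 of the 7 pairs of neighbours overlapped. In K14 ablation it was Defb6, Krt79, Plet1, Sostdc1, Cst6, Defb1, Lgr6 and Gata6, where 4 of the 7 pairs overlapped.

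A wider list of 8 other upper follicle genes was read beside the 8 described so far. All 8 of this list were higher in Lrig1 control than in K14 control (8 of 8 by limma, median log2 difference 2.69). Of all tested genes 6.52% were called higher there. The list was chosen with earlier results of these data known and holds Lrig1, the gene named in the population label. This count is therefore not independent of these data. The list was led by Nebl, an actin-binding protein gene, at 4.53 ± 0.54. Lrig1 (2.73 ± 0.59), Krt17 (2.65 ± 0.17), Krt80 (2.07 ± 0.32), Klk10 (1.60 ± 0.29), Sox9 (2.14 ± 0.43), Prdm1 (3.68 ± 0.62) and Atp6v1c2 (3.76 ± 0.65) made up the rest. In Lrig1 ablation all 8 of the list had negative log2 differences, with a median of -0.95. Against 3.30% of tested genes called lower, 2 fell, the keratin genes Krt80 by 1.49 ± 0.32 and Krt17 by 0.78 ± 0.17 (limma adjusted p = 0.0435 and 0.0465). Both falls were lost without a filter on low values, by edgeR, in the Lrig1 libraries alone and without any 1 of the 4 control libraries, that of Krt17 also with TMM scaling (limma adjusted p = 0.0559) and that of Krt80 also without Lrig1 ablation 1 (0.0577). In K14 ablation 1 of the 8 passed, Krt17, which rose by 1.70 ± 0.17 (limma adjusted p = 0.0159), against 0.0992% of tested genes called higher. This rise was lost in the K14 libraries alone (0.0602) and without K14 control 1 (0.425), K14 control 2 (0.317), Lrig1 control 1 (0.106) or Lrig1 control 2 (0.105). Krt17 was 5722.5 and 7274 in K14 ablation against 1901 and 2082 in its control, and 7190.3 and 7359 in Lrig1 ablation against 12654 and 12357. The ablation groups of this keratin gene thus lay between the controls. For Krt17 the difference of the effects, Lrig1 minus K14, passed as well (-2.48 ± 0.24, limma adjusted p = 0.0384), and it missed the threshold without any 1 of the control libraries (0.263 to 0.411). Without a K14 control library 1 of the 8 still passed between the controls, and without an Lrig1 control library 0 did. Between the ablation replicates, replicate 2 was higher for 6 of 8 in K14 and 8 of 8 in Lrig1.

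**Figure D4:**
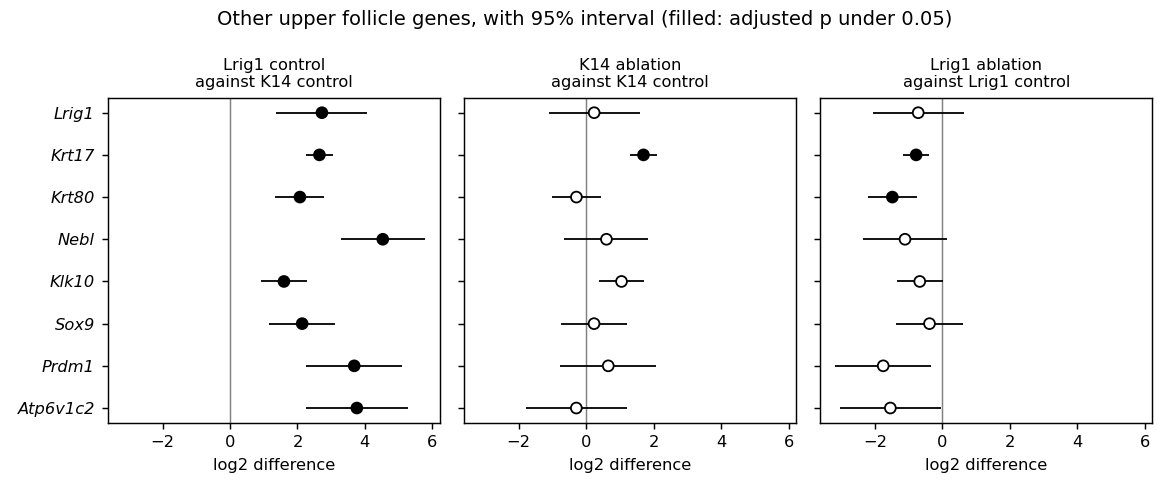
Log2 difference with 95% interval of 8 other upper follicle genes in 3 comparisons; filled points passed an adjusted p of 0.05 in limma. All 8 points are filled and positive between the controls, 1 is filled in K14 ablation and 2 are filled in Lrig1 ablation.

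Partner genes were read from fixed lists. Of the 8 other genes of the R-spondin axis, 4 passed the filter (Lgr4, Lgr5, Rnf43 and Znrf3) and 0 of these passed the test in any of the 5 comparisons (limma; 0 to 2 under 0.05 before adjustment, by comparison). edgeR called 1, Lgr5 in Lrig1 ablation, and so did DESeq2, which also called 1 between the ablation groups. Limma called 1 in Lrig1 ablation with a pseudocount of 5 and without K14 ablation 1, K14 ablation 2 or Lrig1 ablation 1, and 1 higher and 1 lower between the controls in their libraries alone. Between the ablation groups it called 1 gene when K14 ablation 1 was left out and 2 when Lrig1 ablation 1 was, and for the difference of the effects 1 without Lrig1 ablation 1. Lgr5, a related receptor and bulge stem cell marker, was 181 and 493 in Lrig1 ablation against 67.5 and 52.2 in control (log2 difference 2.31 ± 0.52, limma adjusted p = 0.0513; 0.0467 by edgeR). The R-spondin ligand genes Rspo1 to Rspo4 were at or below 4.66 in every library. Of 10 BMP and LRP genes whose products Sostdc1 can bind or modulate, 2 passed, both between the controls, where Bmp6 was higher by 3.90 ± 0.74 and Bmp7 by 1.86 ± 0.22 (limma adjusted p = 0.0186 and 0.00442), against 6.52% of tested genes called higher there. That count depended on the libraries, with 6 higher and 3 lower in the control libraries alone. It was lost without any 1 control library and changed without any 1 ablation library. In the control libraries alone far more of all tested genes were called too, as counted in the last section. Counts of any partner list in that fit therefore cannot be set against 6.52%. Between the ablation groups DESeq2 called 2 higher and 2 lower, and limma called 2 higher and 3 lower without Lrig1 ablation 1. Without that library limma also called 2 lower in Lrig1 ablation, and without Lrig1 ablation 2 it called 1 higher and 1 lower there and 1 lower for the difference of the effects. Of the 4 listed genes of the Cst6 pathway, the proteases Ctsl, Ctsb and Lgmn and the transglutaminase Tgm3, 0 passed in any comparison by limma, edgeR or DESeq2, with 0 to 2 under 0.05 before adjustment in limma. Between the controls, limma called 2 higher and 2 lower in the control libraries alone, and 2 higher and 1 lower without either Lrig1 ablation library. Without Lrig1 ablation 1 it called 3 lower in Lrig1 ablation, 3 lower between the ablation groups and 2 lower for the difference of the effects. Of the other GATA genes Gata3 alone passed the filter, at 728 to 1113 over the 8 libraries, and it passed the test in 0 comparisons (limma adjusted p = 0.362 to 0.908 in the comparisons between groups).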

How the data were processed

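The submitters' processing notes name HTSeq 0.11.1, STAR, Trimmomatic and Picard, and the build GRCm38 (mm10). Their settings, the strand setting included, were not stated there. The authors deposited 1 table with a normalised signal per gene, in which 100% of values are whole multiples of 1 step per library within 0.001, so that read counts could be recovered. The 4 ablation columns are named differently from the labels and were matched as the only groups left.

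Genes entered the tests with at least 1 CPM in 2 or more libraries (18140 genes, with 8 of 8 members). Values were tested as log2(value + 1) with limma 3.58.1 (R 4.3.3, variance trend) in 1 fit of 4 group means, with 4 residual and 4.13 prior degrees of freedom, and Benjamini-Hochberg adjustment over all tested genes. The fit was also run on simulated data with the same setting of spread for all genes and groups. The real groups differed in spread, so that run does not show how the fit performs on these libraries. Fold changes of low genes are understated on this scale. edgeR 4.0.16 and DESeq2 1.42.0 were run on recovered reads as alternatives. Coordinates and lengths came from GENCODE M21. Replicates differed by more than sampling noise in all 4 pairs (chi-square per gene 1.57 to 39.5). The control pairs had 1.57 (K14) and 2.58 (Lrig1), and the ablated pairs had 27.7 (K14) and 39.5 (Lrig1). The limma fit takes 1 spread per gene for all 4 groups. Its p-values may therefore be too large between the controls and too small between the ablation groups. Named genes are the 8 members, the 3 genes nearest to each in profile, and genes of the wider and partner lists past the threshold. Other list genes were named to show what a list holds or after their values were seen. The members and lists were chosen with earlier results of these data known. The wider list was drawn up with 1 more gene, which is left out of its counts and not reported here.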

Additional observations from a re-analysis of the deposited data

Results flagged for a closer look

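Of the 8 genes, 0 passed by limma for a difference of the effects of ablation between the populations. Lgr6 and Defb1 were under 0.05 before adjustment, and DESeq2 called Defb1. Among the 8 other upper follicle genes 1 passed by limma, Krt17, a keratin of the upper follicle and of wounded epidermis. Of all tested genes 0.198% passed. The Krt17 call was lost with the replicate block and without any single control library. Its effect in Lrig1 minus that in K14 was -2.48 ± 0.24 on the log2 scale (SE; limma adjusted p = 0.0384), with a rise in K14 ablation and a fall in Lrig1 ablation.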

How the results depend on the processing

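The number of the 8 genes that passed changed with some settings. In K14 ablation it was 0, and 1 by DESeq2 on recovered reads. In Lrig1 ablation it was 2, and 1 without a filter on low values, with TMM scaling, by edgeR on recovered reads or in the libraries of those groups alone. Between the ablation groups it was 1, against 3 by DESeq2 and 0 in their libraries alone, and for the difference of the effects it was 0, against 1 by DESeq2. Leaving out 1 library at a time gave 0 to 2 in K14 ablation, 0 to 3 in Lrig1 ablation, 0 to 7 between the controls, 0 to 7 between the ablation groups and 0 to 1 for the difference of the effects; a group left with 1 library is then assumed to vary like the others. A replicate block changed none of these counts, though it ended the Krt17 calls in Lrig1 ablation (limma adjusted p = 0.0735) and for the difference of the effects (0.088). Replicate numbers gave correlations of deviations from group means of -0.011 to 0.084. With 2 libraries per group these cannot decide whether samples of the same number were paired, which the labels used do not say.

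Over all tested genes, K14 ablation called 34, against 21 with the replicate block, 221 by DESeq2, 0 in the K14 libraries alone and 0 to 740 with 1 library left out. Lrig1 ablation called 737, against 170 in the Lrig1 libraries alone and 5 to 2498 with 1 left out. The controls called 1594, against 7323 in their libraries alone and 1 to 3539 with 1 left out. The ablation groups called 121, against 75 without a filter, 666 by DESeq2, 0 in their libraries alone and 0 to 4041 with 1 left out. The difference of effects called 36, against 83 with a pseudocount of 5, 5 without a filter, 1 with the replicate block, 303 by DESeq2 and 0 to 2022 with 1 left out. The cause of these changes was not tested. No called gene of the 8 changed direction in any setting run. Depth limits Gata6 most, with 20 to 59 reads in the K14 libraries.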
